A study of Homo sapiens with 4 samples.

Results

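PC3 and DU145, 2 established human prostate cancer cell lines, were compared under a negative control plasmid, gene by gene, in 1 library of each line. Genes entered the comparison when their counts summed over the 2 control libraries reached 50, which held for 18093 of the 35211 genes in the deposited table (51.4%). The series has 4 libraries, 1 for each combination of line (DU145 or PC3) and plasmid (negative control or circ0003553 overexpression). The circular RNA circ0003553 is named in the sample titles by RCAN3. Its 2 libraries served here to check the line differences and, pooled with the control libraries, to test them. All 4 cultures were transfected, so none shows an untreated line. RNA was total RNA, extracted with TRIzol, treated with DNase I and depleted of ribosomal RNA, and libraries were stranded, carried 8-base molecular identifiers and were read as paired ends.

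PC3 was derived from a bone metastasis and DU145 from a brain metastasis of prostate cancer, and both lines grow without androgen. Epithelial cells are held together by E-cadherin, which binds catenins inside the cell and forms adherens junctions, while mesenchymal cells carry N-cadherin, fibrillar matrix and its modifiers. Secretory luminal cells of the prostate depend on androgen and carry FOXA1 and HOXB13, basal cells carry TP63 and basal keratins, and neuroendocrine cells carry chromogranins and synaptophysin.

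The control libraries held 38047428 counts in DU145 and 33438509 in PC3, and the circ0003553 libraries 36461229 and 39488890. Values are given as counts in the control and then the circ0003553 library of each line. A fold is the ratio of the control libraries after TMM scaling, a library-size correction by trimmed means, with a 95% exact conditional interval in brackets that covers counting error only. The ratio under circ0003553 is added where it differs by more than 1.5 times or lies the other way. Where the lower library had 0 counts, the fold is a lower bound against a floor of 3 counts per library, equal to 0.0758 CPM (counts scaled to a common library size) in DU145 and 0.0925 in PC3. Most counts of 1 to 20 were even (70.3% to 75.3% over the libraries). Where a read pair was counted as 2, these intervals are too narrow. With 1 library per line the control ratio has no replicate check. The only test was edgeR's quasi-likelihood test of the line over all 4 libraries with the plasmid as a block, adjusted by Benjamini-Hochberg, and the adjusted p-values below are from it. The labels do not say that the libraries of a line come from separate cultures, so these p-values measure only the spread between these libraries, which carry different plasmids. RCAN3 itself had 639 and 816 counts in the DU145 and 1212 and 3798 in the PC3 libraries, at the level of the gene and not of the circular RNA. Of the genes in the table, 13425 share exon bases with another gene (38.1%), and reads of overlapping genes were not told apart.

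The lines differed widely. Of the 18093 genes, 6419 were at least 2-fold apart (35.5%), 3168 higher in PC3 (17.5%) and 3251 higher in DU145 (18.0%), while 8026 lay within 1.5-fold (44.4%). At least 8-fold differences were found for 740 genes in PC3 and 796 in DU145, and at least 100-fold differences for 151 and 123. The median log2 ratio over all genes was -0.0012. Its median size was 0.69 between the lines, against 0.18 between the DU145 libraries and 0.14 between the PC3 libraries, where 526 (2.91%) and 400 genes (2.21%) were 2-fold apart. The share at least 2-fold apart went from 51.1% of genes with fewer than 200 summed counts to 24.7% of those with 5000 or more. The edgeR test called 14332 of 21731 genes (66.0%), 7192 higher in PC3 (33.1%) and 7140 in DU145 (32.9%). Counts of edgeR calls in the lists below are to be read beside these shares.

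**Figure D1:**
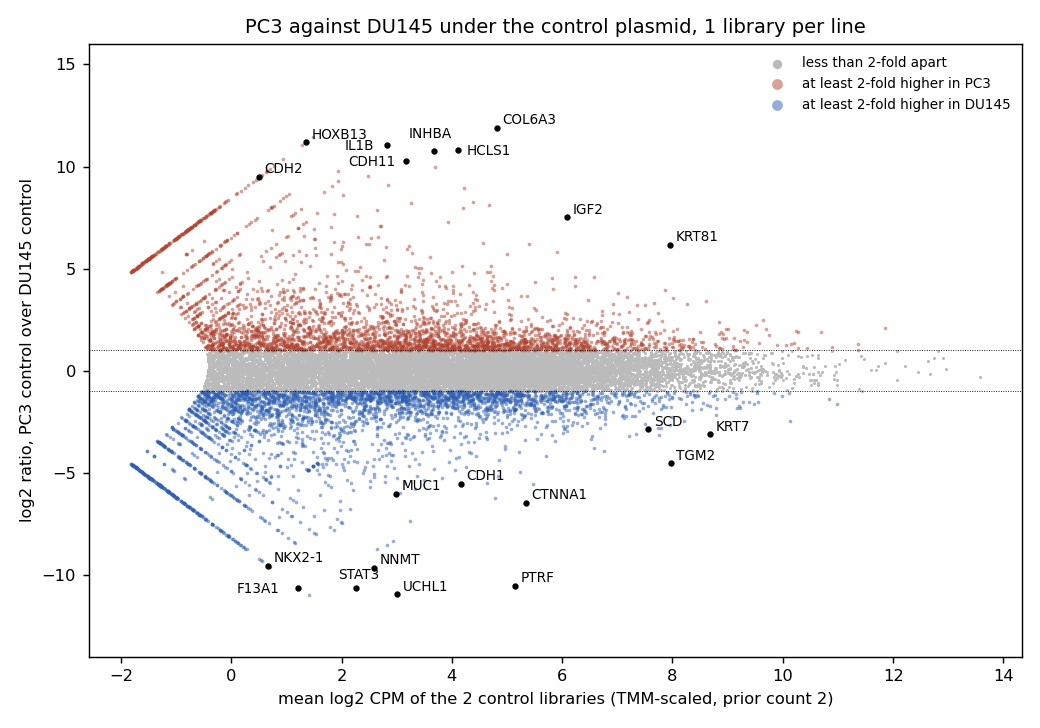
Log2 ratio of PC3 over DU145 in the control libraries (vertical) against mean log2 CPM (horizontal), 1 point per gene, with genes at least 2-fold apart in colour and dotted lines at 2-fold. Genes such as COL6A3 and PTRF lie more than 1000-fold apart at high levels, and the diagonal rays are genes with 0 or few counts in 1 library.

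Most of these differences were found again in the circ0003553 libraries. There, 6412 of the same genes were at least 2-fold apart (35.4%), 3247 higher in PC3 (17.9%) and 3165 in DU145 (17.5%). Of the 3168 genes higher in PC3, 3153 had the same direction there (99.5%) and 2701 were again at least 2-fold higher (85.3%). Of the 3251 higher in DU145, 3217 kept the direction (99.0%) and 2712 the 2-fold difference (83.4%). A single gene, CTD-2060L22.1, was 2-fold apart the opposite way, with 26 counts in each DU145 library and 46 and 12 in PC3. It was picked out after its values were seen.

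**Figure D2:**
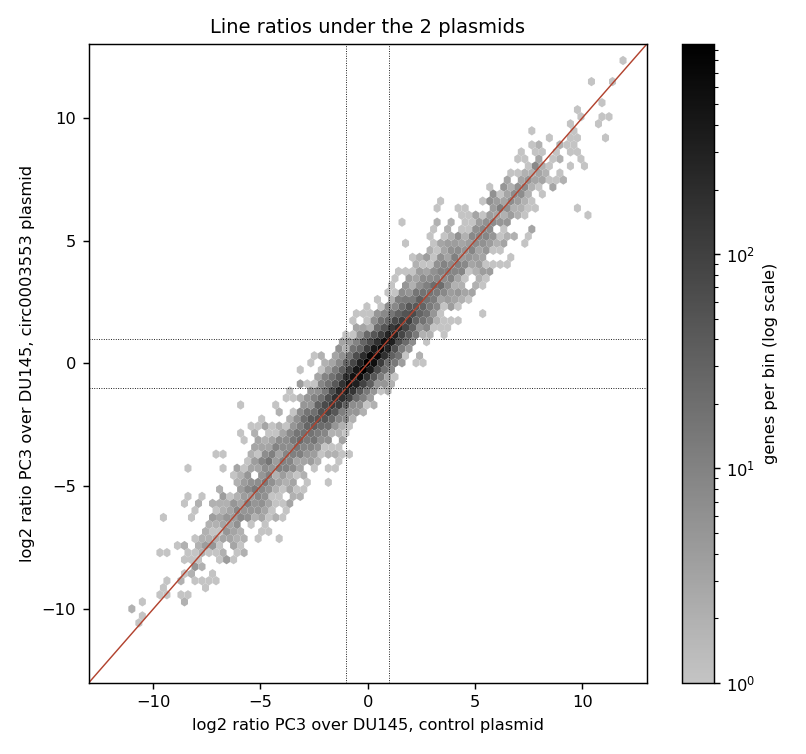
Log2 ratio of PC3 over DU145 under the control plasmid (horizontal) and under the circ0003553 plasmid (vertical), shaded by the number of genes per bin, with the red line at equal ratios and dotted lines at 2-fold. Most genes lie along the line of equal ratios, and 85.3% of the genes at least 2-fold higher in PC3 and 83.4% of those higher in DU145 were so again.

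Genes of epithelial adhesion were mostly higher in DU145. In the list of cell junction genes 34 of 36 listed genes were measured, with 4 at least 2-fold higher in PC3 and 17 in DU145 (61.8%), beside 35.5% of all genes. The median log2 ratio was -0.93 in the control and -0.69 in the circ0003553 libraries, and edgeR called 6 of its 34 tested genes higher in PC3 and 23 in DU145, where 66.0% of all genes were called. Among the 23 members that share no exon base with another gene, 3 were at least 2-fold higher in PC3 and 9 in DU145, at a median of -0.46. CDH1, which encodes E-cadherin, had DU145 counts of 4821 and 2478 against 84 and 108 in PC3. Both DU145 libraries lay above both PC3 libraries, and the control libraries differed by 47-fold (95% interval 37.9 to 59, 24-fold under circ0003553). CTNNA1, which encodes the alpha-catenin that links cadherins to actin, had 15074 and 15131 counts in the DU145 and 139 and 212 in the PC3 libraries, 88.8-fold (75.1 to 106) higher in DU145. The fitted log2 differences of PC3 over DU145 were -5.06 ± 0.18 (SE; adjusted p = 5.72e-12) for CDH1 and -6.34 ± 0.13 (SE; adjusted p = 2.26e-14) for CTNNA1 by edgeR's quasi-likelihood test. CTNND1, the p120-catenin gene, had DU145 counts of 7712 and 7051 against 6381 and 8365 in PC3 and an interval of the ratio from 0.978 to 1.05. In bulk RNA, fewer cells that express a gene and less RNA per cell cannot be told apart. For CDH1, CTNNA1 and CTNND1, exon overlap with other genes leaves the counts uncertain.

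Other junction and epithelial genes lay on the same side. CLDN1, a claudin of tight junctions, had 663 and 761 counts in the DU145 and 2 and 8 in the PC3 libraries, 271-fold (74.8 to 2245, 99.7-fold under circ0003553) higher in DU145. CXADR, a junction protein that also serves as a virus receptor, had DU145 counts of 1956 and 1084 against 40 and 18 in PC3, 40.03-fold (29.3 to 56.2, 63.1-fold under circ0003553). CRB3, an apical polarity protein, had 423 and 484 counts in the DU145 and 6 and 8 in the PC3 libraries, 57.7-fold (26.3 to 158). These 3 genes had 40 counts or fewer in both PC3 libraries. CDH3, which encodes the P-cadherin of basal epithelium, was 36.3-fold (30.9 to 42.9) higher in DU145. The desmosome gene DSP differed by 1.8-fold (1.75 to 1.86). Against this direction, PKP1, a desmosomal plakophilin of stratified epithelia, had DU145 counts of 44 and 60 against 9467 and 12045 in PC3, 263-fold (196 to 362) higher in PC3 with a fitted log2 difference of 7.79 ± 0.15 (SE; adjusted p = 1.83e-14) by edgeR. Among these, CRB3 and CDH3 share exon bases with other genes.

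Genes that regulate or mark the epithelial state gave 19 measured genes of 26 listed, 4 of them at least 2-fold higher in PC3 and 9 in DU145 (68.4%). The median log2 ratio was -0.95 in the control and -0.85 in the circ0003553 libraries, and edgeR called 4 of its 19 tested genes higher in PC3 and 11 in DU145. Of the 9 members that share no exon base with another gene, 3 were at least 2-fold higher in PC3 and 3 in DU145, at a median of -0.10. MUC1, a transmembrane mucin of the apical surface, had 2510 and 1480 counts in the DU145 and 30 and 72 in the PC3 libraries. All 4 values kept the lines apart, at 68.5-fold (47.9 to 102, 21.5-fold under circ0003553) higher in DU145. ST14, the membrane protease matriptase, was 19.6-fold (11.1 to 38.5) higher in DU145 and PRSS22, a serine protease, 47.9-fold (21.8 to 131). ELF3, an epithelial ETS factor, had DU145 counts of 983 and 450 against 186 and 307 in PC3, 4.33-fold (3.69 to 5.09, 1.54-fold under circ0003553). ESRP1, a splicing regulator of epithelial isoforms, was the reverse, with 153 and 151 counts in the DU145 and 507 and 599 in the PC3 libraries, 4.05-fold (3.37 to 4.88) higher in PC3, as was MAL2, of apical transport, at 4.94-fold (4.37 to 5.61). Exons of MUC1, PRSS22, ELF3 and MAL2 overlap those of other genes, whose reads may be counted with them.

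CRB3 and MUC1 are shown as sequence because both were far lower in PC3 and both have an entry in the promoter table from RefSeq (GRCh38.p14), which gives 250 bases before to 50 after a gene's start. They were picked without a rule, and matches are not given here for other genes lower in PC3. Their matches thus do not describe such genes as a group. Capitals mark the letters CACCTG or their reverse complement CAGGTG, an E-box of the kind bound by repressors of epithelial genes such as the SNAI and ZEB factors. The CRB3 window is chr19:6464021-6464320 on the plus strand and holds 5 matches, from position -228 to -60 relative to the start. The MUC1 window is chr1:155192866-155193165 on the minus strand and holds 2, at positions -82 and -75, and is the first of 2 MUC1 starts in the table.
CRB3: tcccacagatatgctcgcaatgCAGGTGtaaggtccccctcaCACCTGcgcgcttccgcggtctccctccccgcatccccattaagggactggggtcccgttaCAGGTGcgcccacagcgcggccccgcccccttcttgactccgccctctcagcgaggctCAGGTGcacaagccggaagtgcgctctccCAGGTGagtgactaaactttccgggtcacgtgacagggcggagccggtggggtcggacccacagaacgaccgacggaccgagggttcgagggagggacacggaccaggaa
MUC1: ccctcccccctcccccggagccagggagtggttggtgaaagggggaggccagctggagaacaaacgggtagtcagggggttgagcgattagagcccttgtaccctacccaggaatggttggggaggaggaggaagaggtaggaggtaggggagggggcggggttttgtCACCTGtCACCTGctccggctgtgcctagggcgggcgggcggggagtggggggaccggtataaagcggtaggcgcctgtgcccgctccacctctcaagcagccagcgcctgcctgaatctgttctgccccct
Of 35116 such windows of 300 bases, 7231 hold at least 1 match on either strand (20.6%), 3.49% hold 2 or more and 33 hold 5 or more (0.094%). A match describes these letters only and says nothing of a factor bound there.

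More mesenchymal genes were higher in PC3 than in DU145. In that list 30 of 34 listed genes were measured, with 14 at least 2-fold higher in PC3 and 5 in DU145 (63.3%), with a median log2 ratio of 0.80 in the control and 0.69 in the circ0003553 libraries, and edgeR called 16 of its 30 tested genes higher in PC3 and 8 in DU145. Restricted to the 17 members that share no exon base with another gene, 6 were at least 2-fold higher in PC3 and 5 in DU145. CDH2, which encodes N-cadherin, had DU145 counts of 0 and 2 against 1294 and 1562 in PC3, at least 527-fold higher in PC3. CDH11, a cadherin of osteoblasts and mesenchyme, had 8 and 2 counts in the DU145 and 10346 and 12229 in the PC3 libraries, 1580-fold (802 to 3661, 5836-fold under circ0003553), with a fitted log2 difference of 11.21 ± 0.19 (SE; adjusted p = 6.92e-15) by edgeR. TWIST1, a transcription factor of mesenchymal programmes, had DU145 counts of 0 and 0 against 383 and 574 in PC3. All 3 were at or near 0 in both DU145 libraries. SNAI2, a repressor of epithelial genes, had 74 and 168 counts in the DU145 and 728 and 1251 in the PC3 libraries, 12-fold (9.45 to 15.5, 7.11-fold under circ0003553) higher in PC3. VIM, the mesenchymal intermediate filament vimentin, was abundant in both lines and went the other way, with DU145 counts of 24033 and 28965 against 11344 and 15581 in PC3, 1.73-fold (1.7 to 1.77) higher in DU145. AXL, a receptor kinase often grouped with mesenchymal genes, was also higher in DU145 at 1.97-fold (1.92 to 2.03), and MYL9, a myosin light chain of contractile cells, at 47.3-fold (41.2 to 54.5, 29.7-fold under circ0003553). DCN and LUM, which define fibroblasts, had at most 8 counts in every library. Uncertain from exon overlap were CDH2, CDH11, TWIST1, VIM and AXL.

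Over the 26 measured genes of the cadherin family, 12 were at least 2-fold higher in PC3 and 10 in DU145 (84.6%). The median log2 ratio was 0.03 in the control and 0.17 in the circ0003553 libraries, and the median size of the ratio was 4.55 against 0.69 over all genes. Among members with at least 200 summed counts, 4 were higher in PC3 and 8 in DU145, at a median of -1.64. PCDH20, a protocadherin, had 0 and 0 counts in the DU145 and 204 and 224 in the PC3 libraries, at least 83.1-fold higher in PC3. PCDHGC3, of the gamma protocadherin cluster, had DU145 counts of 1077 and 920 against 20 and 31 in PC3, 44.1-fold (28.4 to 72.5) higher in DU145. Members of that cluster share exons, so its reads cannot be assigned to 1 member. FAT4 and CELSR1 differed by 1.45-fold (1.24 to 1.71) and 1.11-fold (1.01 to 1.23). Exon bases of PCDH20 and PCDHGC3 are shared with another gene, so their counts may hold its reads.

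**Figure D3:**
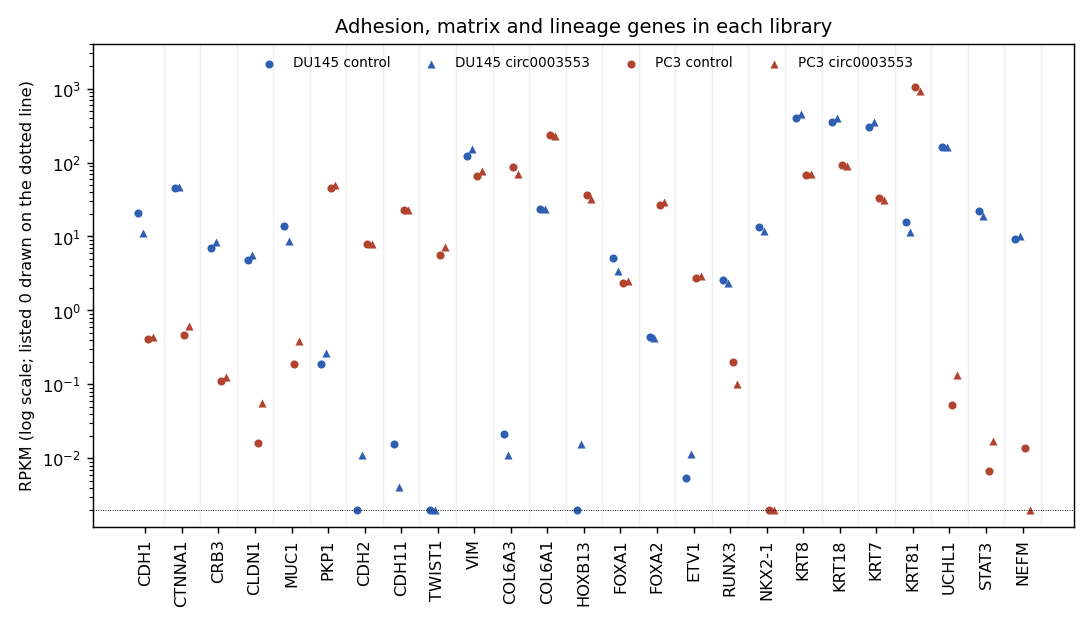
RPKM on a log scale (vertical) of 25 genes in the 4 libraries, blue for DU145 and red for PC3, circles for the control and triangles for the circ0003553 plasmid, with values listed at 0 on the dotted line. The lines separate by more than 10-fold for CDH1, CTNNA1, COL6A3, HOXB13 and KRT81, while VIM had 122 RPKM in the DU145 and 65.8 in the PC3 control library.

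Collagens and matrix proteins lay mostly on the PC3 side. In that list 47 of 60 listed genes were measured, with 27 at least 2-fold higher in PC3 and 6 in DU145 (70.2%), at a median log2 ratio of 1.32 in the control and 1.18 in the circ0003553 libraries, and edgeR called 31 of its 47 tested genes higher in PC3 and 8 in DU145. Of the 29 members that share no exon base with another gene, 18 were at least 2-fold higher in PC3 and 5 in DU145. COL6A3, a chain of the microfibrillar collagen that surrounds cells, had 16 and 8 counts in the DU145 and 56510 and 53610 in the PC3 libraries. It was 4315-fold (95% interval 2657 to 7549) higher in PC3, with a fitted log2 difference of 12.28 ± 0.19 (SE; adjusted p = 5.65e-15) by edgeR, at levels of 0.0214 RPKM in the DU145 control and 86.1 in the PC3 control library. COL6A1, another chain of the same collagen, was present in both lines at 4724 and 4640 against 41500 and 48167 counts, 10.7-fold (10.4 to 11.1) higher in PC3. The basement membrane chains COL4A5 and COL4A6 were 134-fold (61.3 to 367) and 308-fold (119.7 to 1131, 159-fold under circ0003553) higher. COL5A1 was 295-fold (115 to 1086, 136-fold under circ0003553) higher, the proteoglycan SPOCK1 91.8-fold (54.5 to 168), and the microfibril gene FBN2, with DU145 counts of 3 and 6 against 3756 and 4975 in PC3, 1530-fold (523 to 7420, 791-fold under circ0003553). The crosslinking enzyme LOXL2 had 5590 and 5274 counts in the DU145 and 4497 and 5348 in the PC3 libraries, a ratio with an interval from 0.978 to 1.06. TNC differed by 1.66-fold (1.61 to 1.72, 1.03-fold under circ0003553) and AGRN by 1.39-fold (1.35 to 1.44). FBN2, LOXL2 and AGRN overlap exons of other genes, which leaves their counts uncertain to that extent.

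Integrins and laminins as a list stood near the background, with 26 measured genes of 34 listed, 5 of them at least 2-fold higher in PC3 and 5 in DU145 (38.5%) and median log2 ratios of 0.06 in the control and -0.11 in the circ0003553 libraries. Single chains still differed. LAMA4, of vascular basement membrane, had DU145 counts of 2 and 2 against 931 and 1284 in PC3, 569-fold (157 to 4703) higher in PC3, and LAMB1 7.28-fold (6.95 to 7.62). LAMA1 and LAMA2 were 8.61-fold (7.01 to 10.7) and 12.7-fold (7.66 to 22.5, 5.38-fold under circ0003553) higher in DU145. ITGB2, known as a leukocyte integrin chain, had 1722 and 1573 counts in the DU145 and 88 and 126 in the PC3 libraries, 16-fold (12.9 to 20.1) higher in DU145. LAMB3, a chain of epithelial laminin, differed by 1.26-fold (1.23 to 1.28, 1.5-fold the other way under circ0003553). The list of proteases and inhibitors gave 42 measured genes of 66 listed, 15 of them at least 2-fold higher in PC3 and 11 in DU145 (61.9%). ADAMTS1 had DU145 counts of 0 and 2 against 1185 and 1977 in PC3, at least 483-fold (943-fold under circ0003553) higher in PC3, the elastase inhibitor PI3 at least 179-fold, SERPINB2 487-fold (134 to 4032, 219-fold under circ0003553) and MMP16 at least 156-fold. CST6, a cystatin, was 179-fold (49.3 to 1485) higher in DU145 and SERPINA1 2.47-fold (2.3 to 2.66). MMP14, the membrane collagenase, differed by 1.28-fold (1.25 to 1.32, 1.46-fold the other way under circ0003553). Counts of LAMA4, LAMB1, LAMA1, LAMA2, ITGB2, SERPINB2 and MMP16 may include reads of overlapping genes.

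Keratins, the filaments of epithelial cells, divided between the lines, with 19 measured genes of 27 listed, 6 of them at least 2-fold higher in PC3 and 5 in DU145 (57.9%). KRT8 and KRT18, the pair of simple epithelia, were abundant in both lines and higher in DU145, with 103473 and 112105 counts in the DU145 and 15637 and 19117 in the PC3 libraries for KRT8 and 42902 and 46621 against 9902 and 11308 for KRT18, 5.42-fold (5.33 to 5.51) and 3.55-fold (3.47 to 3.63). KRT7, another simple keratin, had DU145 counts of 47531 and 52875 against 4536 and 5055 in PC3, 8.58-fold (8.32 to 8.84) higher in DU145. The type II keratin KRT81, known from hair, had 1160 and 819 counts in the DU145 and 68624 and 69796 in the PC3 libraries, 72.3-fold (68.2 to 76.7) higher in PC3 with a fitted log2 difference of 6.26 ± 0.13 (SE; adjusted p = 3.37e-14) by edgeR. Its level per length was 15.8 RPKM in the DU145 control and 1064 in the PC3 control, above the 68 RPKM of KRT8 in the same PC3 library. Further hair and follicle keratins lay on the PC3 side: KRT83 at 12-fold (8.06 to 18.5), KRT86 at 8.83-fold (7.79 to 10.03), KRT6B with 0 and 2 against 221 and 242 counts and KRT75, with DU145 counts of 0 and 0 against 1521 and 2567 in PC3, at least 619-fold. KRT81, KRT83 and KRT86 are close in sequence, so reads may have been shared among them. KRT4, of the oesophagus, had 278 and 79 counts in the DU145 and 2 and 23 in the PC3 libraries, 114-fold (31.2 to 944, 3.6-fold under circ0003553) higher in DU145. KRT19 and KRT15 differed by 1.22-fold (1.19 to 1.25, 1.87-fold under circ0003553) and 1.35-fold (1.22 to 1.5, 1.36-fold the other way under circ0003553). The overlap caveat applies to KRT8, KRT18, KRT7, KRT86 and KRT75.

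Genes of prostate luminal cells ranged from absent to abundant. Of 30 listed genes 26 were in the table and 16 reached 50 counts. Of these 16, 5 were at least 2-fold higher in PC3 and 8 in DU145 (81.3%), with median log2 ratios of -0.93 in the control and -0.73 in the circ0003553 libraries, and edgeR called 5 of its 16 tested genes higher in PC3 and 10 in DU145. Under scaling by total counts the 5 became 3. The direction turned without exon overlap: of the 10 members that share no exon base with another gene, 5 were at least 2-fold higher in PC3 and 2 in DU145, at a median of 0.55. The androgen-induced genes KLK4 and TMPRSS2 had DU145 counts of 0 and 0 against 12 and 16 in PC3 and 0 and 0 against 10 and 8. Both stayed under 50 counts. KLK3, KLK2, FOLH1 and ALOX15B were not analysed here. FOXA1, a pioneer factor that opens chromatin, had 773 and 503 counts in the DU145 and 314 and 399 in the PC3 libraries, 2.02-fold (1.77 to 2.3, 1.32-fold under circ0003553) higher in DU145. GATA2, a zinc-finger transcription factor, had DU145 counts of 302 and 349 against 250 and 340 in PC3. Exons of FOXA1 overlap those of another gene, whose reads its count may include.

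HOXB13, the posterior homeobox gene of prostate, divided the lines. It had 0 and 2 counts in the DU145 and 4206 and 4442 in the PC3 libraries, at least 1713-fold higher in PC3, at 36.3 RPKM in the PC3 control library, with a fitted log2 difference of 12.01 ± 0.27 (SE; adjusted p = 2.17e-14) by edgeR. AZGP1, a secreted glycoprotein of prostate epithelium, had DU145 counts of 0 and 0 against 296 and 373 in PC3, and SPDEF, an ETS factor of secretory cells, had 66 and 64 against 400 and 450, 7.4-fold (5.69 to 9.76) higher in PC3. STEAP1, of the STEAP family, and SLC45A3, prostein, were 2.12-fold (1.96 to 2.3) and 2.13-fold (1.73 to 2.64) higher in PC3, while STEAP2 differed by 1.44-fold (1.2 to 1.72). ACPP, prostatic acid phosphatase, had 4 and 0 counts in the DU145 and 14 and 20 in the PC3 libraries. On the DU145 side lay FKBP5, a glucocorticoid and androgen target, with DU145 counts of 9616 and 7765 against 1971 and 2205 in PC3 and 3.99-fold (3.8 to 4.19), and NR3C1, the glucocorticoid receptor, with 2373 and 1780 against 515 and 823 and 3.77-fold (3.43 to 4.16, 2.27-fold under circ0003553). PMEPA1 was 3.7-fold (3.33 to 4.12) higher in DU145, CREB3L4 2.4-fold (1.85 to 3.12) and PSCA, with 60 and 62 counts in the DU145 and 21 and 13 in the PC3 libraries, 2.34-fold (1.4 to 4.05, 5.0-fold under circ0003553). GATA3, TRPM8, NKX2-2, MSMB, TMEFF2 and PCA3 stayed at 34 counts or fewer in every library. Among these, PMEPA1, CREB3L4, PSCA and NKX2-2 share exon bases with other genes.

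The basal list gave 22 measured genes of 25 listed, 3 of them at least 2-fold higher in PC3 and 7 in DU145 (45.5%), with median log2 ratios of -0.03 in the control and -0.31 in the circ0003553 libraries. TP63, the defining basal factor, had DU145 counts of 16 and 10 against 10 and 18 in PC3, and NGFR, a basal surface receptor, 14 and 16 against 14 and 22. KRT5 and KRT14, the basal keratin pair, had 64 and 104 counts in the DU145 and 40 and 96 in the PC3 libraries and 112 and 131 against 105 and 122. These defining basal genes were thus low in both lines. Genes of basal attachment were abundant in both: DST, a plakin of hemidesmosomes, had DU145 counts of 42863 and 44233 against 10472 and 13301 in PC3, 3.35-fold (3.28 to 3.42) higher in DU145. S100A2, a calcium-binding protein of basal cells, was 4.15-fold (3.8 to 4.54) higher in PC3, while WNT7B and JAG2 were 4.95-fold (4.24 to 5.79) and 3.32-fold (2.86 to 3.87) higher in DU145. EGFR, the receptor of epidermal growth factor, had 10284 and 12354 counts in the DU145 and 6177 and 8241 in the PC3 libraries, 1.36-fold (1.32 to 1.41), and CD44 differed by 1.42-fold (1.36 to 1.48, 1.02-fold the other way under circ0003553). Exons of NGFR, JAG2, EGFR and CD44 overlap those of other genes, whose reads may be counted with them.

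The neuroendocrine list also held both absent and abundant genes. Of 24 listed genes 20 were in the table and 10 reached 50 counts, 4 of them at least 2-fold higher in PC3 and 2 in DU145 (60%), with median log2 ratios of 0.53 in the control and 0.62 in the circ0003553 libraries. INSM1, PCSK2, STMN2 and GRP were not analysed here. CHGA, chromogranin A, had DU145 counts of 8 and 6 against 2 and 6 in PC3, CHGB 6 and 2 against 2 and 0, and SYP, synaptophysin, 87 and 58 against 38 and 30. NCAM1, NEUROD1, SCG2, SCG3, PCSK1 and NEUROG2 stayed at 26 counts or fewer in every library. The gene with the largest difference was UCHL1, a neuronal ubiquitin hydrolase, with 13862 and 13455 counts in the DU145 and 4 and 12 in the PC3 libraries, 2837-fold (1108 to 10413, 1175-fold under circ0003553) higher in DU145 and 159.7 RPKM in the DU145 control library. POU3F2, a neural POU factor, had DU145 counts of 4 and 6 against 258 and 244 in PC3, 78.8-fold (30.4 to 291, 38.8-fold under circ0003553) higher in PC3, and ONECUT2 had 6 and 18 against 82 and 114, 16.7-fold (7.35 to 46.8, 6.04-fold under circ0003553). ENO2, neuron-specific enolase, was 3.2-fold (2.82 to 3.64) higher in PC3 and TUBB3, a neuronal tubulin, 2.41-fold (2.26 to 2.57) higher in DU145. PROX1 had 14 and 12 counts in the DU145 and 50 and 62 in the PC3 libraries and SCG5 39 and 54 against 63 and 122, while SOX2 had 0 and 0 against 10 and 12. EZH2 and REST, a silencer of chromatin and a repressor of neuronal genes, differed by 1.06-fold (1.01 to 1.1, 1.0-fold the other way under circ0003553) and 1.08-fold (1.01 to 1.17). Uncertain from exon overlap were SYP, NCAM1, NEUROD1, NEUROG2, UCHL1, TUBB3, PROX1 and SCG5.

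Neuronal and synaptic genes outside that list gave 31 measured genes of 50 listed, 15 of them at least 2-fold higher in PC3 and 6 in DU145 (67.7%), with median log2 ratios of 0.90 in the control and 1.15 in the circ0003553 libraries. RELN, the matrix protein reelin, had DU145 counts of 0 and 2 against 976 and 1284 in PC3, at least 397-fold (613-fold under circ0003553) higher in PC3. The guidance receptor ROBO1 and its ligand SLIT2 were both on the PC3 side, with 4 and 4 counts in the DU145 and 2662 and 3240 in the PC3 libraries and 10 and 18 against 861 and 1252, 813-fold (317 to 2986) and 105-fold (56.9 to 220.1, 66.4-fold under circ0003553). Neurofilament chains were divided: NEFL, the light chain, had DU145 counts of 172 and 218 against 7620 and 9211 in PC3, 54.1-fold (46.5 to 63.3) higher in PC3, and NEFM, the medium chain, had 1553 and 1640 against 2 and 0, 636-fold (176 to 5253) higher in DU145. Ion channels gave 40 measured genes of 56 listed, 15 of them at least 2-fold higher in PC3 and 11 in DU145 (65%), with ANO1, a calcium-activated chloride channel, 223-fold (127 to 432) higher in PC3 and the potassium channels KCNQ3 and KCNH1 29.1-fold (18.2 to 49.3) and at least 133-fold higher in DU145. Exon bases of NEFL, NEFM, ANO1 and KCNH1 are shared with another gene, so their counts may hold its reads.

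Lineage transcription factors separated the lines beyond the prostate genes. In that list 48 of 75 listed genes were measured, with 24 at least 2-fold higher in PC3 and 11 in DU145 (72.9%), with median log2 ratios of 1.04 in the control and 1.22 in the circ0003553 libraries, and edgeR called 27 of its 48 tested genes higher in PC3 and 13 in DU145. On the PC3 side stood FOXA2, a forkhead factor of endoderm, with 44 and 40 counts in the DU145 and 2326 and 3030 in the PC3 libraries and 64.6-fold (48 to 89.1). ETV1, an ETS factor rearranged in some prostate cancers, had DU145 counts of 2 and 4 against 889 and 1124 in PC3, 543-fold (149.9 to 4491, 268-fold under circ0003553) higher in PC3. TBX3, a T-box repressor, was 15.5-fold (13.2 to 18.3) higher in PC3, and EYA1, with 0 and 0 counts in the DU145 and 382 and 505 in the PC3 libraries, at least 156-fold. On the DU145 side stood RUNX3, a RUNT factor, with DU145 counts of 451 and 387 against 30 and 18 in PC3 and 12.3-fold (8.5 to 18.5, 22.5-fold under circ0003553). NKX2-1, a homeobox factor of lung and thyroid, had 1627 and 1370 counts in the DU145 and 0 and 0 in the PC3 libraries, at least 444-fold higher in DU145. EYA1 and NKX2-1 overlap exons of other genes, which leaves their counts uncertain to that extent.

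HOX genes, which record position along the body, gave 34 measured genes of 44 listed, 13 of them at least 2-fold higher in PC3 and 6 in DU145 (55.9%), beside 35.5% of all genes. The median log2 ratios were 0.34 in the control and 0.37 in the circ0003553 libraries. This balance was narrower in other settings, with 10 against 8 under circ0003553 and 7 against 6 among members with at least 200 summed counts. For the 9 members without exon overlap it was 3 against 2. HOXA13 had DU145 counts of 24 and 18 against 252 and 291 in PC3 and HOXA9 87 and 77 against 758 and 1109, 12.8-fold (8.43 to 20.4) and 10.6-fold (8.52 to 13.4) higher in PC3. HOXB7, of the middle of the HOXB cluster, had 3093 and 3867 counts in the DU145 and 161 and 195 in the PC3 libraries, 15.7-fold (13.4 to 18.5) higher in DU145, and the same side held HOXB2 at 5.82-fold (4.26 to 8.11) and HOXB8 at 5.85-fold (4.07 to 8.64). HOXB13, at the end of the same cluster, was thus on the PC3 side while HOXB2, HOXB7 and HOXB8 were on the DU145 side. HOXB3 and HOXB6 differed by 1.12-fold (1.02 to 1.24) and 1.55-fold (1.43 to 1.69). Steroid and nuclear receptors gave 36 measured genes of 51 listed, 9 of them at least 2-fold higher in PC3 and 8 in DU145 (47.2%), with median log2 ratios of -0.0092 in the control and 0.25 in the circ0003553 libraries, and of 0.46 in the control without exon overlap. PPARG, a fatty acid receptor, was 5.57-fold (4.93 to 6.31) higher in PC3, NR2F1 6.23-fold (4.8 to 8.19, 2.54-fold under circ0003553), and SRD5A1, which makes dihydrotestosterone, 3.29-fold (2.87 to 3.77) higher in DU145. Counts of HOXA9, HOXB2, HOXB3, HOXB6 and NR2F1 may include reads of overlapping genes.

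Genes known as altered in these lines or in prostate cancer gave 20 measured genes of 23 listed, 1 of them at least 2-fold higher in PC3 and 8 in DU145 (45%), beside 35.5% of all genes. Those higher in DU145 included STAT3, STAT5A and STAT5B, which lie in 1 run of neighbouring genes on chromosome 17 described below. The median log2 ratios were -0.14 in the control and -0.69 in the circ0003553 libraries. CDKN2A, which encodes inhibitors of the cell cycle, had DU145 counts of 5524 and 5061 against 1288 and 1730 in PC3, 3.51-fold (3.3 to 3.73) higher in DU145, with a fitted log2 difference of -1.72 ± 0.10 (SE; adjusted p = 1.68e-09) by edgeR. RB1, the retinoblastoma gene, had 521 and 412 counts in the DU145 and 407 and 437 in the PC3 libraries and an interval of the ratio from 0.919 to 1.20. APC, a brake on WNT signalling, was 2.12-fold (1.95 to 2.3) higher in DU145. BRCA2 differed by 1.87-fold (1.7 to 2.07) and SMAD4 had a ratio of 1.01-fold (0.868 to 1.17). A count of transcripts does not show whether a gene is mutated. KMT2C, STK11, CDKN2B, MTAP, PIK3CA, CDKN1A and MDM2 were under 2-fold apart in the control libraries, and ERG had DU145 counts of 20 and 15 against 4 and 2 in PC3. Under circ0003553 CDKN2B was 2.35-fold higher in PC3. CDKN1A and MTAP, 1.01-fold and 1.16-fold higher in PC3 in the control libraries, were 1.88-fold and 1.25-fold higher in DU145 under circ0003553. The overlap caveat applies to CDKN2A, APC, SMAD4, STK11, MTAP, PIK3CA and MDM2.

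Some genes were detected in 1 line only, with at least 200 counts in its control library and at most 3 in the other. There were 118 such genes in PC3 (0.652%) and 132 in DU145 (0.73%), of which 89 and 98 were protein-coding, and 45 and 56 overlapped exons of another gene. By the same rule, 88 of the 118 and 89 of the 132 were again detected in 1 line only under circ0003553. All of them were at least 2-fold higher in the same line there, a looser criterion. In the other line 114 and 123 had at most 10 counts there, and the highest counts were 30 and 23. In PC3 the highest counts were those of EPB41L3, a cytoskeletal adaptor, with 0 and 0 counts in the DU145 and 5033 and 5730 in the PC3 libraries, and HOXB13. KDR, the VEGF receptor of endothelium, had DU145 counts of 0 and 2 against 1564 and 1624 in PC3, at least 637-fold higher in PC3, and MAGEA6, a cancer-testis antigen, 0 and 0 against 1386 and 1518. In DU145 the highest was STAT3, a transcription factor of cytokine signalling. FAM213A had 4481 and 3686 counts in the DU145 and 0 and 2 in the PC3 libraries, F13A1, the A subunit of coagulation factor XIII, 3443 and 2954 against 0 and 0, CELF2, an RNA-binding splicing factor, 1612 and 1407 against 2 and 6, and HEXA, a lysosomal hexosaminidase, 1360 and 1298 against 0 and 0. Exons of HEXA overlap those of another gene, whose reads its count may include.

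In 3 places, at least 4 neighbouring protein-coding genes each had at least 50 counts in 1 control library and at most 3 in the other. Neighbours are next to each other among measured protein-coding genes only, so other genes may lie between them. With at least 200 counts, only the run on chromosome 17 was left. On chromosome 17, from 42188799 to 42388568, GHDC, STAT5B, STAT5A and STAT3 had this pattern in DU145. STAT3 had DU145 counts of 7479 and 6160 against 2 and 6 in PC3, 3061-fold (847 to 25280, 1076-fold under circ0003553) higher in DU145, with a fitted log2 difference of -10.58 ± 0.20 (SE; adjusted p = 1.66e-14) by edgeR. STAT5B had 1294 and 1245 counts in the DU145 and 0 and 4 in the PC3 libraries, STAT5A 304 and 268 against 0 and 0 and GHDC 330 and 268 against 0 and 4. PTRF, the caveolar coat gene also called CAVIN1, lies beside this run and had DU145 counts of 53829 and 50989 against 28 and 44 in PC3, 1574-fold (1089 to 2368) higher in DU145. Genes nearby, picked out after their values were seen, had the same pattern, with 1387 and 1311 counts in the DU145 and 0 and 1 in the PC3 libraries for KAT2A and 878 and 962 against 0 and 0 for ATP6V0A1. Neither belongs to the run, which is broken off on each side by a measured gene that did not meet its rule. On chromosome 19, from 36817428 to 36998700, the zinc-finger genes ZNF790, ZNF345, ZNF829 and ZNF568 had it in DU145, with ZNF568 at 314 and 326 against 0 and 2 counts. On chromosome 13, from 85792790 to 94407401, the synaptic adhesion genes SLITRK6 and SLITRK5 and the glypicans GPC5 and GPC6 had it in PC3, with SLITRK5 at 0 and 0 against 192 and 223 counts. Coordinates are those of the deposited table, and hg38 is the build in the submitters' processing notes. Among these, KAT2A, ATP6V0A1, ZNF790 and GPC6 share exon bases with other genes.

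Differences also varied by chromosome. Among protein-coding genes, the median log2 ratio was -0.69 on chromosome 9 and -0.42 on chromosome 10, and 0.43 on chromosome 20 and 0.35 on chromosome 3. On chromosome 9, 34.0% of measured genes were at least 2-fold higher in DU145 and 7.64% in PC3, against 18.0% and 17.5% of all genes. On chromosome 20 the shares were 8.14% and 23.98%. On chromosome 8 both were high, at 24.8% and 32.3%. Under circ0003553 the medians were -0.68, -0.34, 0.46 and 0.38 on chromosomes 9, 10, 20 and 3.

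**Figure D4:**
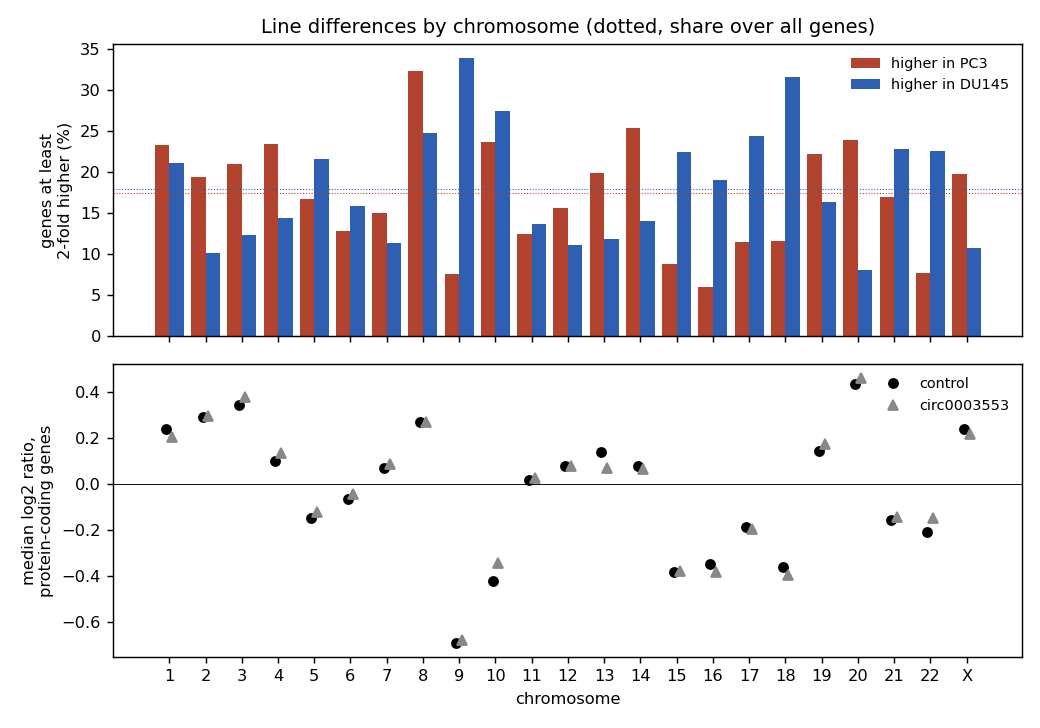
Upper: percent of measured genes at least 2-fold higher in PC3 (red bars) or DU145 (blue bars) in the control libraries, by chromosome, with dotted lines at 17.5% and 18.0% for all genes. Lower: median log2 ratio of protein-coding genes in the control (circles) and circ0003553 libraries (triangles), lowest on chromosome 9 at -0.69 and highest on chromosome 20 at 0.43.

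Secreted growth factors included many line differences. In that list 59 of 73 listed genes were measured, with 29 at least 2-fold higher in PC3 and 15 in DU145 (74.6%), beside 35.5% of all genes. Their median log2 ratio was 0.66 in the control and 0.12 in the circ0003553 libraries. INHBA and INHBB, the activin subunits, had DU145 counts of 10 and 20 against 17468 and 21519 in PC3 and 4 and 8 against 3150 and 2718, 2134-fold (1160 to 4451, 1027-fold under circ0003553) and 962-fold (375 to 3533, 324-fold under circ0003553) higher in PC3. FST, follistatin, which binds and blocks activin, had 14 and 50 counts in the DU145 and 13312 and 18543 in the PC3 libraries, 1162-fold (692 to 2125, 354-fold under circ0003553). IGF2, an imprinted insulin-like growth factor, had DU145 counts of 198 and 360 against 30043 and 32863 in PC3, 185-fold (161 to 214, 87.1-fold under circ0003553) higher in PC3. PTN, pleiotrophin, had 0 and 4 counts in the DU145 and 897 and 1180 in the PC3 libraries, and LTBP1, which stores latent TGF-beta in matrix, was 35.3-fold (30.3 to 41.3) higher in PC3. On the DU145 side AREG, an EGFR ligand, had DU145 counts of 8796 and 8491 against 394 and 670 in PC3, 18.3-fold (16.5 to 20.3), and WISP2 had 1029 and 306 against 2 and 5, 421-fold (116 to 3482, 64.1-fold under circ0003553). TGFB1 had 3110 and 2936 counts in the DU145 and 2591 and 3180 in the PC3 libraries and an interval of the ratio from 0.966 to 1.07. Exons of IGF2, EGFR and TGFB1 overlap those of other genes, whose reads may be counted with them.

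Receptor tyrosine kinases stood near the background, with 33 measured genes of 46 listed, 9 of them at least 2-fold higher in PC3 and 4 in DU145 (39.4%). EGFR and MET, the receptor of hepatocyte growth factor, differed by 1.36-fold (1.32 to 1.41) and 1.52-fold (1.47 to 1.58). PDGFRA, a platelet-derived growth factor receptor, had DU145 counts of 0 and 0 against 238 and 238 in PC3, and FLT4, the lymphatic VEGF receptor, 809 and 691 against 0 and 0. EPHB6 was 21.3-fold (17.6 to 26) higher in PC3, and IGF1R and ROR1 3.89-fold (3.55 to 4.28) and 6.57-fold (5.72 to 7.57) higher in DU145. The WNT list gave 35 measured genes of 50 listed, 8 of them at least 2-fold higher in PC3 and 8 in DU145 (45.7%), with FZD8, a receptor, at 10 and 22 counts in the DU145 and 5458 and 5762 in the PC3 libraries and 667-fold (362 to 1391, 249.98-fold under circ0003553) higher in PC3. RSPO3, a secreted activator of WNT signalling, had DU145 counts of 668 and 456 against 0 and 22 in PC3, and the secreted antagonist SFRP1 510 and 456 against 2 and 0. DKK3, of the dickkopf family, had 383 and 333 counts in the DU145 and 7 and 15 in the PC3 libraries. In the list of Notch and hedgehog genes 22 of 32 listed genes were measured, with 10 at least 2-fold higher in PC3 and 4 in DU145 (63.6%), with median log2 ratios of 0.46 in the control and 0.36 in the circ0003553 libraries. The Notch ligand JAG1 had DU145 counts of 190 and 238 against 4435 and 5340 in PC3, 28.5-fold (24.7 to 33.1) higher in PC3, and the Notch target HES1 201 and 171 against 1758 and 1825, 10.7-fold (9.23 to 12.4), with HEY1 at 158-fold (85.8 to 331, 84.7-fold under circ0003553). SHH, the hedgehog ligand, had 2 and 10 counts in the DU145 and 1374 and 1812 in the PC3 libraries, 839-fold (232 to 6937, 173-fold under circ0003553) higher in PC3, and GLI3, a hedgehog effector, 17.6-fold (13.3 to 23.8). Uncertain from exon overlap were EGFR, PDGFRA and JAG1.

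Feedback genes of kinase signalling gave 42 measured genes of 45 listed, 22 of them at least 2-fold higher in PC3 and 3 in DU145 (59.5%), with median log2 ratios of 1.03 in the control and 0.57 in the circ0003553 libraries, and edgeR called 25 of its 42 tested genes higher in PC3 and 11 in DU145. DUSP4, a phosphatase of MAP kinases, had DU145 counts of 289 and 290 against 4549 and 5165 in PC3, 19.2-fold (17.1 to 21.7) higher in PC3. The Sprouty genes SPRY1 and SPRY4, inhibitors of receptor signalling, were 18.8-fold (14.3 to 25, 8.44-fold under circ0003553) and 14.6-fold (12.7 to 16.9, 7.1-fold under circ0003553) higher in PC3. EGR1, an immediate early factor, went the other way with 386 and 300 counts in the DU145 and 2 and 12 in the PC3 libraries, 158-fold (43.4 to 1309, 26.2-fold under circ0003553) higher in DU145. The list of YAP and TGF-beta targets gave 37 measured genes of 39 listed, 7 of them at least 2-fold higher in PC3 and 12 in DU145 (51.4%). ANKRD1, a YAP target, had DU145 counts of 1809 and 3295 against 32 and 62 in PC3, 46.3-fold (32.7 to 67.9) higher in DU145, AMOTL2 was 7.04-fold (6.64 to 7.47) higher and F3, tissue factor, 10.2-fold (8.93 to 11.6). CYR61, another YAP target, differed by 1.19-fold (1.14 to 1.24). Exons of AMOTL2 overlap those of another gene, whose reads its count may include.

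**Figure D5:**
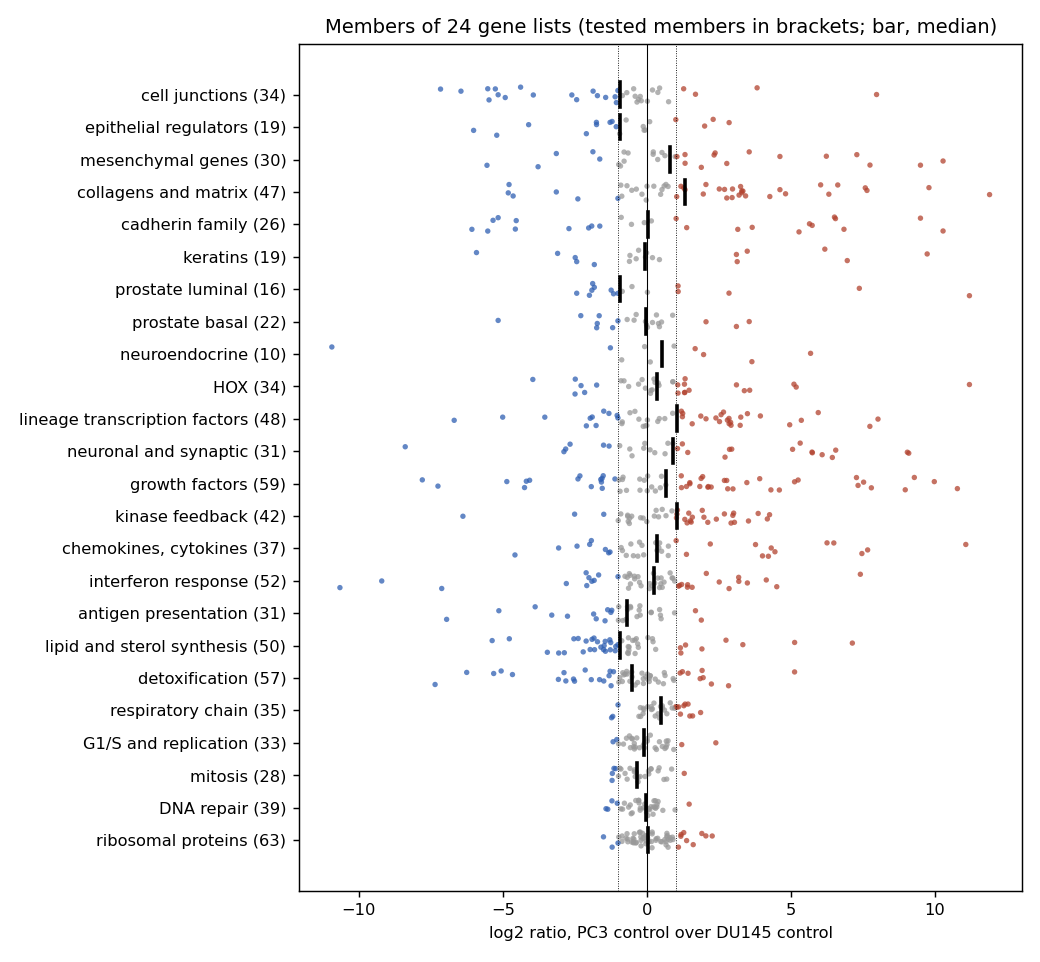
Log2 ratio of PC3 over DU145 in the control libraries (horizontal) for each measured member of 24 gene lists, red or blue where at least 2-fold higher in PC3 or DU145, with black bars at the list medians. Collagens and matrix reach a median of 1.32 and lipid and sterol genes -0.94, while DNA repair and ribosomal proteins centre near 0.

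Cytokines included some of the widest differences, in a list with 37 measured genes of 53 listed, 13 of them at least 2-fold higher in PC3 and 8 in DU145 (56.8%). IL1B, the inflammatory cytokine interleukin 1 beta, had 4 and 9 counts in the DU145 and 10868 and 12564 in the PC3 libraries, 3319-fold (1296 to 12184, 1332-fold under circ0003553) higher in PC3. The neutrophil chemokines CXCL5 and CXCL6 were 77.6-fold (64 to 95) and 98.4-fold (64.8 to 157) higher in PC3, and CSF3, granulocyte colony-stimulating factor, had DU145 counts of 0 and 2 against 315 and 393 in PC3. CSF1, of macrophages, had 2037 and 1397 counts in the DU145 and 68 and 102 in the PC3 libraries, 24.5-fold (19.3 to 31.7, 14.3-fold under circ0003553) higher in DU145. Interferon response genes gave 52 measured genes of 57 listed, 15 of them at least 2-fold higher in PC3 and 11 in DU145 (50%), with median log2 ratios of 0.25 in the control and 0.36 in the circ0003553 libraries. IFI44 and IFI44L were higher in PC3, with DU145 counts of 161 and 933 against 1216 and 8154 in PC3 and 2 and 24 against 581 and 993. Each was also higher in the circ0003553 than in the control library of its line. RNA and DNA sensors stood near the background, with 19 measured genes of 28 listed, 2 of them at least 2-fold higher in PC3 and 4 in DU145 (31.6%). Exons of CXCL6 overlap those of another gene, whose reads its count may include.

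Antigen presentation genes gave 31 measured genes of 37 listed, 2 of them at least 2-fold higher in PC3 and 11 in DU145. Their share of 41.9% was near the 35.5% of all genes. The median log2 ratios were -0.68 in the control and -0.74 in the circ0003553 libraries. The summed RPKM of the list lay the other way, at 1274 and 1333 in DU145 against 1458 and 1545 in PC3. NLRC5, the activator of class I genes, had 333 and 405 counts in the DU145 and 26 and 52 in the PC3 libraries, 10.5-fold (7.03 to 16.3) higher in DU145, and PSMB9, of the immunoproteasome, 6.99-fold (5.11 to 9.79, 4.31-fold under circ0003553). The class II genes CD74 and HLA-DRB1 had DU145 counts of 807 and 674 against 17 and 16 in PC3 and 270 and 200 against 0 and 4. HLA genes are polymorphic and similar to each other, so reads of different HLA genes may have been shared or lost. Few cancer-testis genes were measured, with 9 measured genes of 58 listed, 3 of them at least 2-fold higher in PC3 and 4 in DU145 (77.8%). Of the others, 30 stayed under 50 summed counts and 19 were not analysed here. DDX43 and BRDT had 2101 and 2322 counts in the DU145 and 8 and 2 in the PC3 libraries and 482 and 498 against 2 and 0, far higher in DU145, and MAGEA3 was detected in PC3 only, with 0 and 0 against 226 and 264. MAGEA3 and MAGEA6 are near-identical copies, so their counts cannot be kept apart with certainty. Counts of PSMB9, HLA-DRB1 and DDX43 may include reads of overlapping genes.

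Sterol and fatty acid synthesis lay on the DU145 side. In that list 50 of 53 listed genes were measured, with 8 at least 2-fold higher in PC3 and 25 in DU145 (66%), with median log2 ratios of -0.94 in the control and -0.62 in the circ0003553 libraries, and edgeR called 9 of its 50 tested genes higher in PC3 and 35 in DU145. SCD, the stearoyl-CoA desaturase, had DU145 counts of 20192 and 14049 against 2264 and 2404 in PC3, 7.3-fold (6.99 to 7.63) higher in DU145. FDFT1, squalene synthase, and IDI1, an earlier enzyme of the same pathway, had 7717 and 6525 counts in the DU145 and 574 and 847 in the PC3 libraries and 3425 and 2887 against 334 and 471, 11-fold (10.1 to 12) and 8.39-fold (7.5 to 9.42). ELOVL6, which elongates fatty acids, was 5.82-fold (5.21 to 6.52) higher. FABP4, a fatty acid carrier of adipocytes, was the reverse with DU145 counts of 0 and 0 against 250 and 244 in PC3, as was CPT1C at 39.6-fold (24.1 to 69.7) higher in PC3. The overlap caveat applies to FDFT1 and IDI1.

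Detoxification and redox genes gave 57 measured genes of 62 listed, 9 of them at least 2-fold higher in PC3 and 18 in DU145 (47.4%), with median log2 ratios of -0.52 in the control and -0.16 in the circ0003553 libraries. AKR1B1, aldose reductase, had 4747 and 3730 counts in the DU145 and 22 and 29 in the PC3 libraries, 177-fold (117 to 282) higher in DU145, GPX3 37.2-fold (22.4 to 66.9, 12-fold under circ0003553) and CYP4F11, with 259 and 157 against 1 and 2, 212-fold (37.7 to 8406, 82.2-fold under circ0003553). SOD1, superoxide dismutase, had DU145 counts of 22227 and 15932 against 18425 and 18531 in PC3 and an interval of the ratio from 0.993 to 1.03. Amino acid metabolism gave 36 measured genes of 40 listed, 7 of them at least 2-fold higher in PC3 and 12 in DU145 (52.8%), with median log2 ratios of -0.30 in the control and -0.79 in the circ0003553 libraries. Of its 22 members that share no exon base with another gene, 6 were at least 2-fold higher in PC3 and 6 in DU145. NNMT, which methylates nicotinamide, had 6661 and 3451 counts in the DU145 and 5 and 14 in the PC3 libraries, 1090-fold (467 to 3360, 258-fold under circ0003553) higher in DU145, BCAT1, of branched-chain amino acids, 14.3-fold (12.6 to 16.2) and PRODH 175-fold (68.2 to 645, 104-fold under circ0003553). Metallothioneins and zinc transporters gave 17 measured genes of 25 listed, 2 of them at least 2-fold higher in PC3 and 6 in DU145 (47.1%). MT1E had DU145 counts of 236 and 554 against 0 and 2 in PC3 and MT2A 9710 and 22364 against 10163 and 17907, and MT2A differed by 1.28-fold (1.24 to 1.31, 1.31-fold the other way under circ0003553). Glycolysis and hypoxia genes gave 37 measured genes of 40 listed, 11 of them at least 2-fold higher in PC3 and 7 in DU145 (48.6%), with the glucose transporter SLC2A1 6.42-fold (5.97 to 6.91) higher in DU145 and hexokinase HK2 5.47-fold (5.02 to 5.96) higher in PC3. For BCAT1, PRODH, SLC2A1 and HK2, exon overlap with other genes leaves the counts uncertain.

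Respiratory chain genes of the nucleus lay on the PC3 side by smaller amounts. In that list 35 of 36 listed genes were measured, with 10 at least 2-fold higher in PC3 and 3 in DU145 (37.1%), near the 35.5% of all genes. The median log2 ratios were 0.47 in the control and 0.41 in the circ0003553 libraries. Of its 35 tested genes edgeR called 21 higher in PC3 and 4 in DU145, beside 33.1% and 32.9% of all genes. COX5B and COX6C, subunits of cytochrome oxidase, had 3187 and 2750 counts in the DU145 and 9490 and 9902 in the PC3 libraries and 11423 and 10217 against 28044 and 31358, 3.64-fold (3.49 to 3.79) and 3.0-fold (2.93 to 3.07) higher in PC3. CYC1 was 2.69-fold (2.54 to 2.85) higher, and COX4I1 differed by 1.18-fold (1.16 to 1.21, 1.01-fold the other way under circ0003553). Of 13 mitochondrially encoded mRNAs 1 was at least 2-fold apart, MT-ND6, with DU145 counts of 72922 and 51160 against 122480 and 107582 in PC3, 2.05-fold (2.03 to 2.07) higher in PC3. Mitochondrially encoded genes took 6.28% and 4.96% of counts in DU145 and 6.88% and 6.34% in PC3. Exons of COX4I1 overlap those of another gene, whose reads its count may include.

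In lists of growth and housekeeping genes the share at least 2-fold apart was below the 35.5% of all genes. Of the list of G1/S and replication 12.1% were at least 2-fold apart (2 in each direction of 33), of DNA repair 12.8% (5 of 39), of mitosis 17.9% (5 of 28), of the proteasome and reference genes 18.9% (7 of 37) and of ribosomal proteins 19% (12 of 63). CDK6, a kinase of G1, had 330 and 367 counts in the DU145 and 1424 and 1679 in the PC3 libraries, 5.27-fold (4.67 to 5.96) higher in PC3, and BRCA1 and ATR, of DNA repair, were 2.68-fold (2.5 to 2.88) and 2.57-fold (2.35 to 2.81) higher in DU145. Among ribosomal proteins RPSA had DU145 counts of 13221 and 13063 against 52016 and 58607 in PC3, 4.81-fold (4.72 to 4.9) higher in PC3, with RPS24 at 4.13-fold (4.04 to 4.22) and RPL22 at 3.74-fold (3.69 to 3.8). Ribosomal protein genes have many processed copies, so their reads may be split among them. ACTB and GAPDH, common references, differed by 1.04-fold (1.03 to 1.06) and 1.03-fold (1.02 to 1.05, 1.16-fold the other way under circ0003553). Heat shock and ER stress genes gave 33 measured genes of 34 listed, 7 of them at least 2-fold higher in PC3 and 1 in DU145 (24.2%) and apoptosis genes 35 measured genes of 38 listed, 4 of them at least 2-fold higher in PC3 and 8 in DU145 (34.3%). TNFRSF10D, a decoy receptor of TRAIL, had 1022 and 1163 counts in the DU145 and 2 and 2 in the PC3 libraries, 418-fold (115 to 3459) higher in DU145, and MCL1, a survival factor, was 3.36-fold (3.22 to 3.51) higher. Exons of CDK6, BRCA1, ATR, RPSA, RPL22, GAPDH and MCL1 overlap those of other genes, whose reads may be counted with them.

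Markers of other cells were checked against the labels. The leukocyte gene PTPRC had DU145 counts of 0 and 0 against 2 and 0 in PC3, and CD3E and MS4A1 were not analysed here. The summed leukocyte list was 99.4 and 132 RPKM in DU145 and 196 and 236 in PC3, nearly all of it from CD68, which epithelial cells also express, with 2 of 10 listed genes measured. Of 10 fibroblast markers 4 were measured, summing to 1.32 and 1.22 RPKM in DU145 and 5.26 and 5.59 in PC3, with COL1A1 at 216 and 124 against 1153 and 1519 counts, and DCN and LUM at most 8 counts. Of 8 endothelial markers 3 were measured, PECAM1, KDR and TIE1, all higher in PC3, with PECAM1 at 10 and 14 against 585 and 595 counts. They summed to 0.112 and 0.176 RPKM in DU145 and 10.6 and 9.30 in PC3, while CDH5 and VWF, which define endothelium, had at most 6 counts in the control libraries. Of 6 hepatic markers only SERPINA1 was measured, and ALB had at most 6 counts. Exons of CD68 overlap those of another gene, whose reads its count may include.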

How the data were processed

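RNA was measured in 4 libraries, 1 per group. Gene counts in whole numbers and gene RPKM were deposited by the authors. Columns were matched to samples by name, NC to the negative control and RCAN3 to the overexpression plasmid, and 0 columns belonged to other series. Build hg38, edgeR 3.12.1, Subread 1.5.1 with featureCounts, and Trimmomatic 0.36 are listed in the submitters' processing notes. Which aligner and strand setting were used, and how molecular identifiers were handled, is not given in the sources used here.

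Log2 ratios of TMM-scaled CPM (prior count of 2) were computed for genes whose control libraries summed to at least 50 counts, and called at 2-fold. The quasi-likelihood test of edgeR 4.0.16 (R 4.3.3, limma 3.58.1) was fitted to 21731 genes of all 4 libraries, with line and plasmid terms, TMM scaling, filtering by line, 1 residual degree of freedom and a prior of 13.4, and called at a Benjamini-Hochberg adjusted p of 0.05. DESeq2 1.42.0 and limma-voom were alternatives. On simulated data the fit recovered 79.3% of genes changed 2-fold (73 of 92) and 99.0% of those changed 4-fold (98 of 99), with 8 false calls among 21033 genes. The simulation changed 200 genes, gave every gene the same spread beyond counting error and held no plasmid effect. These rates therefore need not hold for the real libraries. Intervals came from scipy 1.17.1 (Python 3.11.15). GENCODE release 29 gave biotypes by name for 24795 genes (70.4%).

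The comparison, its 49 gene lists (1951 entries, 1870 found) and the naming rule were chosen with earlier results of these data known. A gene was measured if it reached 50 counts. Named were the 12 highest and 12 lowest ratios at a mean log2 CPM of at least 4, the 12 highest counts in each direction among genes detected in 1 line only, genes of runs of at least 4 neighbours with at least 50 counts in 1 line and at most 3 in the other, and the 8 highest RPKM per line among genes at least 8-fold higher. In each list with 200 summed counts, up to 6 members at least 2-fold apart and up to 3 under 2-fold were named, and every member of the luminal, line-hallmark and neuroendocrine lists. Genes of the Y chromosome and some genes the rule names are counted but not reported here. No groups, samples or libraries were left out.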

Additional observations from a re-analysis of the deposited data

Results flagged for a closer look

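CTD-2060L22.1 was the single measured gene at least 2-fold apart in opposite directions under the plasmids. Its log2 ratio of PC3 over DU145 was 1.05 in the control and -1.06 in the circ0003553 libraries. It had 26 counts in each DU145 library and 46 and 12 in PC3, and shares exon bases with another gene. The difference between the plasmids was not tested.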

How the results depend on the processing

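The count of 6419 genes at least 2-fold apart was 6477 under scaling by total counts, which shifted the median log2 ratio of all genes to -0.10 and gave 2851 genes higher in PC3 and 3626 in DU145, 44.0% against 49.4% of calls in PC3. It was 13494 without a filter on low counts (7290 higher in PC3 and 6204 in DU145), 3295 for 8551 genes without exon overlap (1722 and 1573), and 2622 at 4-fold (1246 and 1376). Genes higher in DU145 numbered 4888 at a minimum of 10 counts and 2128 at 200, the same tables with more or fewer genes tested. Genes detected in PC3 only numbered 312 with at least 50 counts and 20 with at least 1000. Those in DU145 only numbered 377 and 20, and 85 with 0 counts in PC3 and 201 with at most 10. The edgeR count of 14332 was 10085 with DESeq2, 13896 with limma-voom, and 11093 to 13522 when each of the 4 libraries was left out without the plasmid term. There were 8 runs of neighbours at a minimum of 3 genes, 0 at 6, 5 with at most 10 counts in the other line and 1 with at least 200 counts in the line of the run. The alternative without exon overlap was applied to the lists, and the 200-count minimum to the runs, after seeing the data. The balance of calls turned to PC3 without a filter, without exon overlap and at a minimum of 200 counts (2197 against 2128). It did so too in the circ0003553 libraries filtered on their own counts (3355 against 3135). Medians of 10 of the 49 lists changed sign, leaving out changes in which both values were small. Without exon overlap they became 0.55 (luminal), 0.46 (nuclear receptors), -0.20 (integrins and laminins), -0.047 (surface markers), 0.12 (amino acids), -0.0012 (heat shock) and 0.46 (imprinted). With at least 200 counts they became -0.19 (receptor kinases), -1.64 (cadherins) and 0.064 (metallothioneins), and under circ0003553 0.25 (nuclear receptors) and -0.11 (integrins and laminins). Among the small changes left out, the keratin median went from -0.052 to 0.089 without exon overlap. Under scaling by total counts, ribosomal proteins went from 0.020 to -0.082, cadherins from 0.031 to -0.068 and integrins and laminins from 0.064 to -0.039. Of the genes named by the rule, 0 at least 2-fold apart or called by edgeR changed sign. Without the plasmid block, which sets the lines against each other within each plasmid, edgeR called 13642 genes. The labels give no replicate numbers to pair by. Counting intervals assume independent reads, and genes under 50 counts were not compared.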

Other observations

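Surface markers gave 47 measured genes of 54 listed, 14 of them at least 2-fold higher in PC3 and 11 in DU145 (53.2%). CD33, known from myeloid cells, had 0 and 0 counts in the DU145 and 549 and 783 in the PC3 libraries, at least 224-fold higher in PC3, and NCAM2, a neural adhesion molecule, 0 and 0 against 252 and 270. NRP2, a coreceptor of semaphorins and VEGF, was 89.5-fold (54.9 to 157) higher in PC3, and CADM1, an adhesion molecule, had DU145 counts of 2972 and 1731 against 42 and 54 in PC3, 57.9-fold (42.7 to 80.5, 33.6-fold under circ0003553) higher in DU145. S100 proteins, annexins and mucins gave 30 measured genes of 44 listed, 7 of them at least 2-fold higher in PC3 and 11 in DU145 (60%), with median log2 ratios of -0.36 in the control and -0.33 in the circ0003553 libraries. AGR2, which folds mucins, had 0 and 0 counts in the DU145 and 420 and 624 in the PC3 libraries, at least 171-fold higher in PC3, and ANXA10, of gastric epithelium, 12 and 10 against 599 and 669, 61-fold (34.7 to 119). LCN2, an iron-binding lipocalin, was 14.8-fold (9.92 to 23.2, 7.58-fold under circ0003553) higher in DU145, while ANXA5 differed by 1.06-fold (1.04 to 1.09). Exons of NRP2 overlap those of another gene, whose reads its count may include.

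Imprinted genes and cancer-linked long noncoding RNAs gave 28 measured genes of 42 listed, 7 of them at least 2-fold higher in PC3 and 7 in DU145 (50%), with median log2 ratios of -0.22 in the control and -0.17 in the circ0003553 libraries, and of 0.46 in the control without exon overlap. SCHLAP1, a long noncoding RNA of prostate cancer, had DU145 counts of 0 and 0 against 212 and 251 in PC3, at least 86.3-fold higher in PC3, and MIR100HG, a microRNA host gene, 25.6-fold (20.1 to 33). GAS5, a host gene of small nucleolar RNAs, had 1469 and 1582 counts in the DU145 and 182 and 297 in the PC3 libraries, 6.61-fold (5.66 to 7.75) higher in DU145, and LUCAT1 22.9-fold (16.1 to 33.7, 12.9-fold under circ0003553). SCHLAP1, MIR100HG, GAS5 and LUCAT1 overlap exons of other genes, which leaves their counts uncertain to that extent. By class of gene, 49.8% of 229 long intergenic RNAs, 41.3% of 480 antisense RNAs and 34.2% of 13317 protein-coding genes were at least 2-fold apart. Their levels differed as well, with median summed counts of 156, 243 and 1434.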
